A study of Rattus norvegicus with 6 samples.

Results

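The miR-15 and miR-16 family is a group of short regulatory RNAs that share the bases with which a microRNA recognises its messenger RNA targets. It was taken here as every row of the deposited count table named for rno-miR-15a, rno-miR-15b, rno-miR-16, rno-miR-195 or rno-miR-497, both hairpin arms included, which gave 10 rows of 1289, among them rno-miR-497-5p. The table covered 6 small RNA libraries of PC12 cells, a rat adrenal pheochromocytoma line that divides in culture and can take on neuron-like features, with 3 libraries labelled EN and 3 labelled EC. Neither abbreviation is explained in the labels, which give no treatment, dose, time or genotype. The series title concerns Netrin-1, exosomes of endothelial cells and the repair of peripheral nerves, and every library carries the same cell line label. Nothing in the labels tells whether replicates are separate cultures. All p-values below refer to the variation among these libraries, which could be technical.

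A microRNA hairpin yields a 5p and a 3p strand, one of which is usually kept as the guide in the silencing complex while the other is mostly discarded. The 5p guides of this family repress cyclins, cyclin-dependent kinases and the survival factor BCL2, and they are known for restraining entry into the cell cycle. The human miR-15a and miR-16 genes are often deleted in chronic lymphocytic leukaemia, and in mouse heart miR-195 is linked to the time when muscle cells stop dividing.

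Mature sequences were found in RefSeq (GRCr8) for 8 of the 10 rows, among them 4 of the 5 5p rows, and rno-miR-15a is named without its sequences. The 5p guides are shown first, because the shared seed (bases 2 to 8, in capitals) is what makes them a family, together with miR-322-5p, the 1 known row outside the family whose RefSeq sequence had the same seed.
miR-16-5p: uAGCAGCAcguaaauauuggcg
miR-195-5p: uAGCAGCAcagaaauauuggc
miR-15b-5p: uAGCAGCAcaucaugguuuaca
miR-497-5p: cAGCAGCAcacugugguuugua
miR-322-5p: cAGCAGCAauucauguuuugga
All 5 had the seed AGCAGCA. MiR-16-5p and miR-195-5p were the closest pair, with 19 of 21 compared bases identical, and differed at G10A and U11G (the base of miR-16-5p first, positions counted from the 5′ end). MiR-16-5p and miR-497-5p shared 11 of 22 bases.

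The 3p strands, shown because they are counted as rows of the same genes, had 4 different seeds among the 4 with a sequence.
miR-15b-3p: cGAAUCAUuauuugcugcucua
miR-16-3p: aCCAAUAUuauugugcugcuu
miR-195-3p: cCAAUAUUggcugugcugcucca
miR-497-3p: cCAAACCAcacugugguguuaga

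By locus, Mir15b and Mir16 are neighbouring miRNA genes inside the span of Smc4, which codes for a condensin subunit, and Mir497 and Mir195 are neighbours with no other RefSeq gene spanning them. In GRCr8, Mir16 lies at chr2:155555327-155555421 (plus strand), Mir195 at chr10:55450495-55450581 (plus strand) and Mir497 at chr10:55450171-55450239 (plus strand). GRCr8 is not the rat build listed by the submitters, and these positions belong to the RefSeq sequences alone. The hairpins of the pair on chromosome 10 are given with both mature arms in capitals, since their arm use differed widely.
Mir195: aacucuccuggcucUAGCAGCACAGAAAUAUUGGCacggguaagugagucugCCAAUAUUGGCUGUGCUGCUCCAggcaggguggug
Mir497: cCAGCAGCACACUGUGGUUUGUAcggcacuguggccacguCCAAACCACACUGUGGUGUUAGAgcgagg

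The libraries held 4521694 to 5371351 miRNA counts in EN and 6153582 to 6554639 in EC. These counts made up 25.0 to 26.9 percent of the library total implied by the deposited RPM values in EN and 30.9 to 32.6 percent in EC. Levels below are CPM, that is, counts over the miRNA counts of a library after TMM scaling, and fold changes are on the log2 scale, EN minus EC, with standard errors (SE). Among the other cell types with markers listed, endothelial markers summed to 1086 to 1229 CPM in EN and 1064 to 1144 CPM in EC, mostly miR-126a-3p, and 1 of the 2, miR-126a-5p, was called lower, as were 1.91 percent of all rows. Blood markers summed to 157 to 178 CPM in EN and 94.1 to 127 CPM in EC, mostly miR-150-5p. Of the 6, miR-451-5p was called higher, 1 of 2 tested, as were 2.07 percent of all rows. MiR-144-3p was at 0 counts in 5 libraries, and the part of such cells in the results was not tested. The liver miR-122-5p stood at 8.23 to 14.4 CPM in EN and 5.96 to 9.74 CPM in EC. Markers of neuroendocrine cells were present, with a sum of 1254 to 1511 CPM in EN and 992 to 1158 CPM in EC, mostly miR-7a-5p, while miR-375-3p was at 12 to 14 counts in EN and 13 to 20 counts in EC. None of the 5 passed, and they did not share a direction. MiR-7a-5p was at 0.35 on the log2 scale, miR-182 at 0.15 and miR-375-3p at 0.048. MiR-96-5p was at -0.79 and miR-183-5p at -1.60, the last with 28, 0 and 0 counts in EN and 12, 76 and 18 in EC.

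No family row passed the test between EN and EC. In edgeR's quasi-likelihood fit, adjusted by Benjamini-Hochberg over 628 rows, 0 of the 9 family rows tested passed the threshold of 0.05, with adjusted p from 0.108 to 0.881, against 3.98 percent of all rows tested. At an unadjusted p under 0.05, 3 of the 9 family rows and 136 of all 628 rows passed, and DESeq2 called 1 of the 9, miR-195-5p, where it called 11.3 percent of all rows. The log2 fold change was negative in 7 of 9 family rows, against 49.2 percent of all rows, and the median was -0.10 in the family and 0.02 over all rows. The tenth row, miR-497-3p, failed the filter on low counts, with 0 counts in each EN library and 0, 1 and 1 in the EC libraries. A count of 0 allows up to 3 counts, or 0.555, 0.686 and 0.657 CPM in the EN libraries, and no fold change is given. In bulk RNA, fewer cells of a type and less RNA per cell cannot be told apart.

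**Figure D1:**
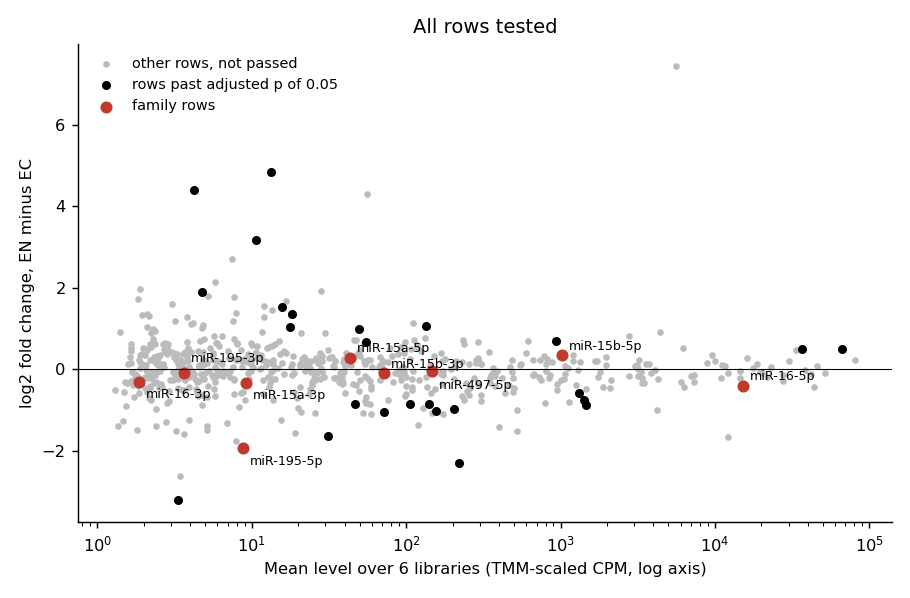
Log2 fold change (EN minus EC, y axis) against mean level over 6 libraries (TMM-scaled CPM, log x axis) for the 628 rows tested. The 9 family rows are red, rows past the adjusted p of 0.05 black and the others grey; no family row is among the 25 that passed, and miR-195-5p has the most negative family value at -1.95.

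The family was spread over a wide range of levels, and miR-16-5p held most of it. All mature sequences in hand had 21 to 23 bases, so that counts compare them at nearly the same length. Whether library preparation captured the different sequences equally was not tested, so these levels are shares of reads and not of molecules. MiR-16-5p took 90.0, 88.4 and 91.9 percent of family counts in the EN libraries, against 94.3, 93.5 and 92.5 percent in the EC libraries. This share was below that of all EC libraries in each EN library, but 91.9 percent in EN replicate 3 was close to 92.5 percent in EC replicate 3. Its SD among libraries was 1.77 percentage points in EN and 0.88 in EC, and the difference in this share was not tested. By level, 14.6 percent of all rows tested had every EN library below every EC library. The 95 percent Wilson interval of the miR-16-5p share reached at most 0.265 percentage points to either side and covers counting error only. MiR-16-5p ranked 20 by mean level among the 584 rows with a known rat miRNA name.

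By mean level the order was miR-16-5p, miR-15b-5p, miR-497-5p, miR-15b-3p and miR-15a-5p in both groups, and the libraries of neighbours in this order did not overlap within either group. Below them the order differed. In EN it ran miR-15a-3p, miR-195-5p, miR-195-3p and miR-16-3p, where the libraries of miR-195-5p and miR-195-3p overlapped. In EC it ran miR-195-5p, miR-15a-3p, miR-195-3p and miR-16-3p, where the libraries of miR-195-5p and miR-15a-3p overlapped.

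**Figure D2:**
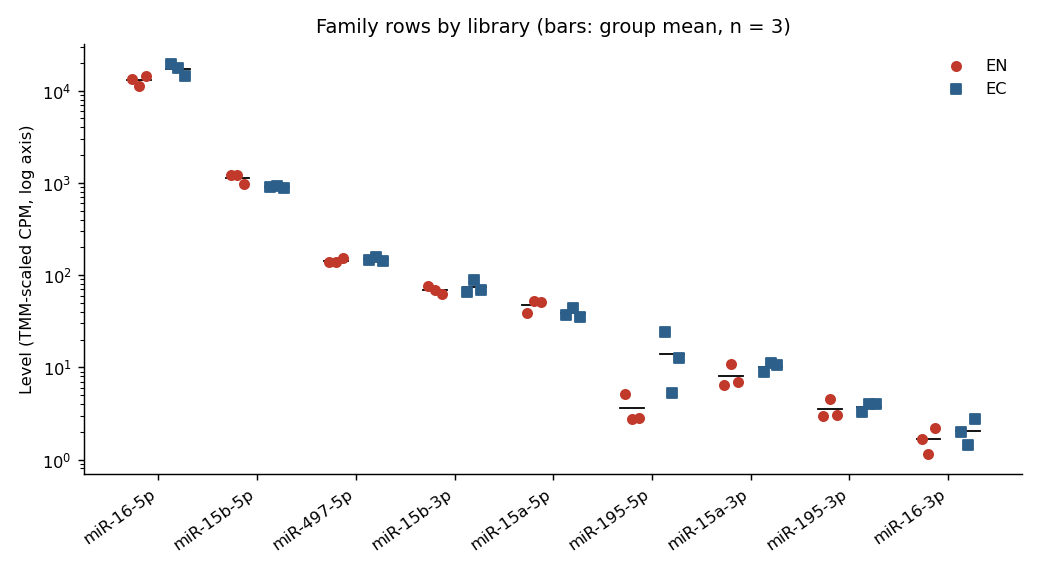
Level of each tested family row in every library (TMM-scaled CPM, log y axis), EN as red circles and EC as blue squares, with bars at the group means of 3 libraries. MiR-16-5p stands at 11380 CPM or more in all 6 libraries, and the EC values of miR-195-5p span 5.27 to 24.1 CPM.

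MiR-16-5p, the main guide of the family and a repressor of cyclin D1 and BCL2 in human cells, was lower on average in EN without passing the test. It had 72711, 49776 and 65827 counts in the EN libraries and 127689, 111753 and 93922 in the EC libraries. Scaled, these were 13455, 11380 and 14421 CPM in EN, against 19721, 17845 and 14344 CPM in EC. The groups overlapped, because EN replicate 3 lay just above EC replicate 3. The means were 13085 ± 1554 CPM in EN and 17303 ± 2729 CPM in EC (SD, n = 3 each), a log2 fold change of -0.40 (SE 0.14, adjusted p = 0.147). The call depended on the divisor. With the totals behind the RPM values as divisor, the log2 fold change was -0.73 (SE 0.17, adjusted p = 0.0289), a setting in which the median of all rows was -0.30 and 14.2 percent of rows were called lower. Relative to its neighbours in abundance, miR-16-5p varied more within groups. Its within-group SD was 0.207 on the log2 scale, above that of 85.0 percent of 20 known rows within 2-fold of its level, whose median was 0.125.

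MiR-16-3p, the discarded strand, had 9, 5 and 10 counts in EN and 13, 9 and 18 in EC. These counts are too few to show a difference of this size, with a log2 fold change of -0.30 (SE 0.42, adjusted p = 0.705).

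MiR-15b-5p, which is made from the gene beside Mir16, lay on the other side of 0. It stood at 1221, 1213 and 983 CPM in the EN libraries and 906, 920 and 880 CPM in the EC libraries. Every EN library was above every EC library, a separation that 15.0 percent of all rows tested showed in the same direction. The means were 1139 ± 135 CPM in EN and 902 ± 19.9 CPM in EC (SD, n = 3 each), 1.26-fold apart, with a log2 fold change of 0.34 (SE 0.12, adjusted p = 0.154). With library totals implied by RPM the log2 fold change was 0.0063 (adjusted p = 0.980). Over all 16 alternatives the log2 fold change of miR-15b-5p ran from 0.0063 to 0.43. The adjusted p ran from 0.0597 to 0.980, and 0 passed. The 3p strand of the same hairpin stood at 76.4, 69.5 and 62.2 CPM in EN and 65.6, 88.8 and 69.3 CPM in EC, overlapping, with a log2 fold change of -0.10 (SE 0.17, adjusted p = 0.771).

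MiR-15a, whose human gene lies beside another copy of miR-16, was counted at a much lower level than miR-15b. MiR-15a-5p stood at 38.7, 52.1 and 51.0 CPM in EN, against 36.6, 44.2 and 35.6 CPM in EC. The groups overlapped, with a log2 fold change of 0.28 (SE 0.18, adjusted p = 0.412), which became -0.055 with library totals implied by RPM. MiR-15a-3p stood at 6.48, 10.7 and 7.01 CPM in EN and 8.96, 11.0 and 10.5 CPM in EC, with a log2 fold change of -0.33 (SE 0.26, adjusted p = 0.517).

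MiR-195-5p had the most negative fold change of the family and the widest spread. Its counts were 28, 12 and 13 in the EN libraries and 156, 33 and 83 in the EC libraries. Scaled, they were 5.18, 2.74 and 2.85 CPM in EN, against 24.1, 5.27 and 12.7 CPM in EC. The groups did not overlap, which 14.6 percent of all rows tested showed in this direction, but EN replicate 1 and EC replicate 2 were nearly level. The means were 3.59 ± 1.38 CPM in EN and 14.0 ± 9.48 CPM in EC (SD, n = 3 each), with a log2 fold change of -1.95 (SE 0.59, adjusted p = 0.108). The EC libraries differed among themselves by 4.57-fold, and the within-group SD of 0.808 on the log2 scale exceeded that of 96.7 percent of 60 known rows of like level.

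Whether miR-195-5p passed depended on the tool and on single libraries. DESeq2 gave a log2 fold change of -1.96 with adjusted p = 0.00775, and edgeR without EC replicate 2, where 4.09 percent of rows were called lower, gave -2.31 with adjusted p = 0.0288. Without EC replicate 1, its highest library, the edgeR value was -1.29 with adjusted p = 0.236. Over all its alternatives the adjusted p ran from 0.00775 to 0.341. In EC replicate 1 the muscle miRNA miR-206-3p was also high, with 187 counts against 9 and 21 in the other EC libraries and 9, 7 and 5 in the EN libraries. The 3 muscle markers summed to 1.75 to 2.41 CPM in EN and 1.76 to 30.3 CPM in EC, with miR-1-3p at 0 counts in 5 libraries and 1 count in EN replicate 1, and their part in the result was not tested. For each 10000 counts of the nearly identical and far more abundant miR-16-5p, miR-195-5p had 3.85, 2.41 and 1.97 counts in EN and 12.2, 2.95 and 8.84 counts in EC. This ratio, looked at after the values were seen, was not constant among the libraries. The sources used here do not say how reads were divided between near-identical rows, so the level of miR-195-5p is uncertain.

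MiR-195-3p, with both groups at a few CPM, stood at 2.96, 4.57 and 3.07 CPM in EN and 3.24, 3.99 and 3.97 CPM in EC. It had a log2 fold change of -0.085 (SE 0.29, adjusted p = 0.881), so the wide spread seen in the 5p row of the same hairpin was not seen in this row.

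MiR-497-5p, the other guide of the miR-195 locus, was the steadiest member. It stood at 139.3, 139.5 and 153 CPM in the EN libraries and 147, 158 and 142 CPM in the EC libraries. The groups overlapped, with means of 144 ± 7.68 CPM in EN and 149 ± 8.05 CPM in EC (SD, n = 3 each). The log2 fold change was -0.053 (SE 0.13, adjusted p = 0.843). With library totals implied by RPM, where the median of all rows was -0.30, miR-497-5p was at -0.38 (SE 0.15, adjusted p = 0.111). Its within-group SD of 0.0763 on the log2 scale was above that of only 3.23 percent of 62 known rows of like level, whose median was 0.220.

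**Figure D3:**
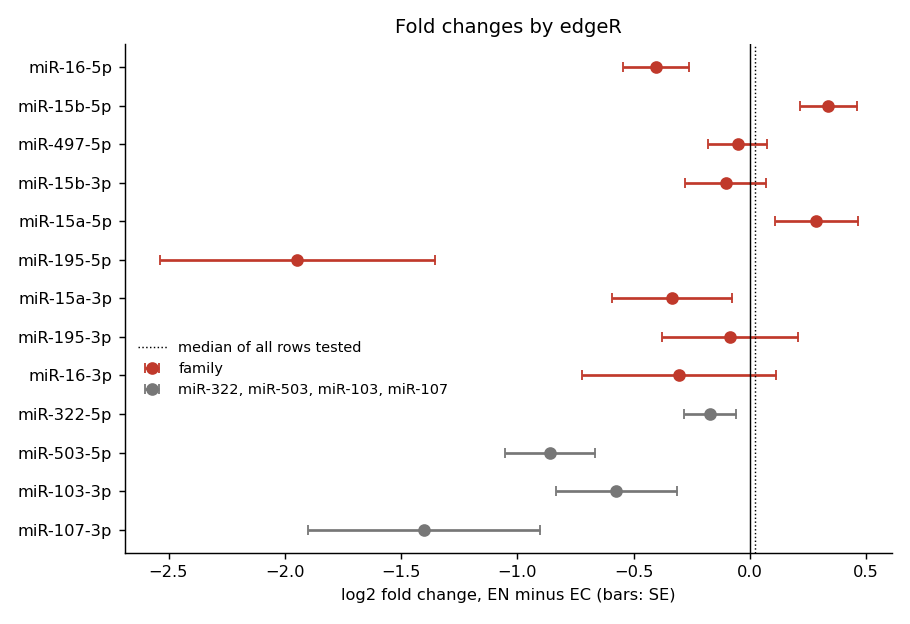
Log2 fold change of each tested family row (red) and of 4 related miRNAs (grey), EN minus EC, by edgeR, with bars for the SE; the solid line is 0 and the dotted line the median of all rows tested, 0.02. MiR-15b-5p and miR-15a-5p lie right of 0, the other 7 family rows and the 4 related miRNAs lie left, and none of the 13 passed the test.

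Ratios between guides were compared within each library, where library scaling cancels. The pairs of miR-15b with miR-16 and of miR-195 with miR-497 come from neighbouring RefSeq genes, while miR-15a is paired with miR-16 as in human. Whether all miR-16-5p counts came from the gene beside Mir15b was not tested. The ratio of miR-15b-5p to miR-16-5p counts was 0.0908, 0.107 and 0.0682 in the EN libraries and 0.0460, 0.0515 and 0.0614 in the EC libraries. All EN ratios were above all EC ratios, with mean log2 ratios of -3.52 ± 0.33 in EN and -4.25 ± 0.21 in EC (SD, n = 3 each) and a difference of 0.73. The ratio of miR-15a-5p to miR-16-5p was also higher in every EN library, at 0.00287, 0.00458 and 0.00354 in EN and 0.00186, 0.00248 and 0.00248 in EC, a log2 difference of 0.68. Both pairs share miR-16-5p and are not independent. How often ratios of other miRNA pairs separate in this way was not counted. By level, 15.0 percent of all rows tested had every EN library above every EC library.

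Two-sided exact permutation tests gave p = 0.1 for each of these ratios, the smallest that 3 against 3 libraries allow, and adjusted p = 0.15 over the 3 pairs compared. The ratio of miR-195-5p to miR-497-5p was 0.0372, 0.0197 and 0.0187 in EN and 0.164, 0.0333 and 0.0891 in EC. These groups overlapped, since EC replicate 2 lay below EN replicate 1, and the log2 difference of -1.72 had an exact permutation p of 0.2 (adjusted p = 0.2). It was -1.19 without EC replicate 1 and -2.34 without EC replicate 2. Both guides of the pair on chromosome 10 had unlike fold changes, but the permutation test could not have passed a difference between them.

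**Figure D4:**
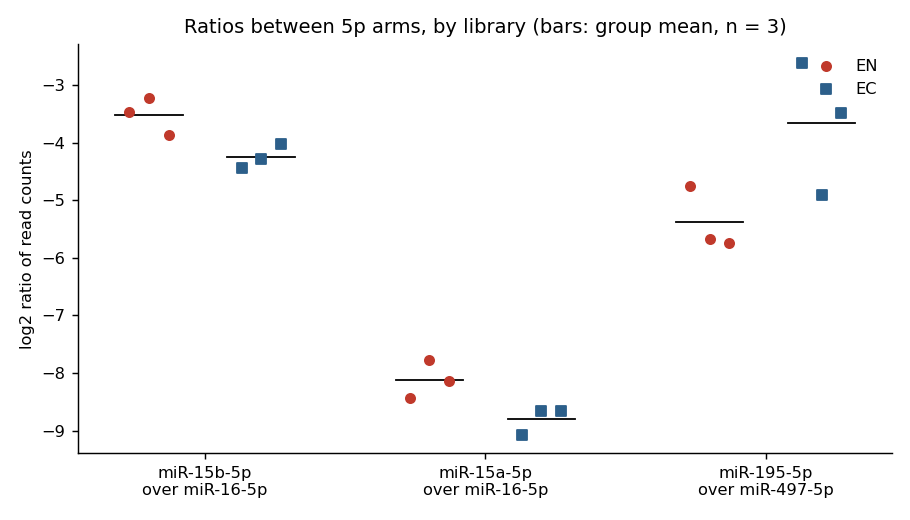
Log2 ratio of read counts between 5p arms in every library (y axis) for the 3 pairs compared, EN as red circles and EC as blue squares, with bars at the group means of 3 libraries. The EN values lie above all EC values for miR-15b-5p and miR-15a-5p over miR-16-5p, and the groups overlap for miR-195-5p over miR-497-5p.

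Arm use differed strongly between hairpins. The 5p strand held over 99.9 percent of miR-16 counts and over 99.8 percent of miR-497 counts in every library, and these hairpins had too few 3p counts for the test of arm use. For miR-15b the 5p share was 94.1, 94.6 and 94.0 percent in EN and 93.2, 91.2 and 92.7 percent in EC. For miR-15a it was 85.7, 82.9 and 87.9 percent in EN, against 80.3, 80.1 and 77.2 percent in EC. In both hairpins every EN library had a larger 5p share than every EC library, a separation that 15.2 percent of the 92 hairpins tested showed in this direction. Wilson intervals of 95 percent reached at most 0.699 percentage points to either side for miR-15b and 4.72 for miR-15a.

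MiR-195 was the hairpin with the most even arms in every library but EC replicate 1, where miR-15a, at 80.3 percent 5p, was more even. The 5p share of miR-195 was 63.6, 37.5 and 48.1 percent in EN and 88.1, 56.9 and 76.1 percent in EC. Its Wilson intervals reached 4.78 to 17.6 percentage points to either side. The log2 ratio of 5p to 3p differed between EN and EC by 0.63 (SE 0.20, adjusted p = 0.134) for miR-15a, by 0.43 (SE 0.16, adjusted p = 0.198) for miR-15b and by -1.63 (SE 0.69, adjusted p = 0.222) for miR-195, by limma. None of these 3 passed, where 5.43 percent of 92 hairpins tested did. The difference for miR-195 was -1.02 without EC replicate 1 (adjusted p = 0.411) and -2.02 without EN replicate 1 (adjusted p = 0.179). MiR-195 rested on 14 to 26 counts of its 3p strand in each library.

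**Figure D5:**
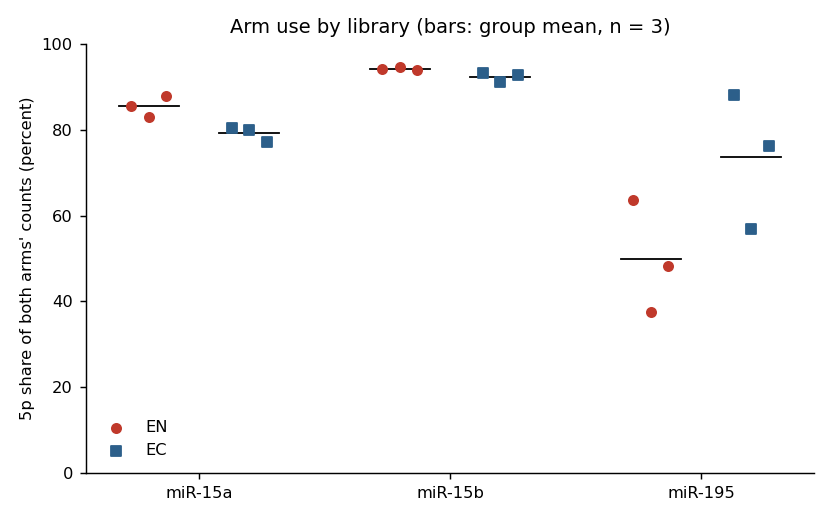
Share of the 5p strand in the counts of both strands (percent, y axis from 0) in every library for the 3 family hairpins tested for arm use, EN as red circles and EC as blue squares, with bars at group means of 3 libraries. MiR-15b lies above 91 percent throughout, and miR-195 ranges from 37.5 to 88.1 percent.

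As a whole the 5p guides held 1.495, 1.24 and 1.57 percent of miRNA counts in the EN libraries and 2.10, 1.93 and 1.54 percent in the EC libraries. The 95 percent Wilson interval of each share reached at most 0.0114 percentage points to either side and covers counting error only. The groups overlapped at EN replicate 3 and EC replicate 3, and the sum follows miR-16-5p. Without miR-16-5p the guides held 0.141, 0.136 and 0.119 percent in EN, against 0.112, 0.115 and 0.107 percent in EC, with no overlap. MiR-15b-5p made up most of this sum. It showed the same separation alone, as did 15.0 percent of all rows tested in this direction. As percent of the library totals implied by RPM, the sum was 0.0380, 0.0340 and 0.0304 in EN. In EC it was 0.0366, 0.0370 and 0.0331, and the groups overlapped. The pair on chromosome 10 summed to 147.5, 147 and 159 CPM in EN and 175, 168 and 159.1 CPM in EC.

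Related guides outside the family rule were read from a list. MiR-322-5p has the family seed, while miR-503-5p, miR-103-3p and miR-107-3p have seeds close to it and act on overlapping targets.
miR-503-5p: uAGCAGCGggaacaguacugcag
miR-103-3p: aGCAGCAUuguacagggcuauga
Of the 4 in the table, 0 passed, against 3.98 percent of all rows. All 4 had a negative log2 fold change, against 49.2 percent of all rows, and the median was -0.72, against 0.02. MiR-322-5p, the second most abundant guide with this seed, stood at 2595 ± 142 CPM in EN and 2924 ± 306 CPM in EC (SD, n = 3 each), a log2 fold change of -0.17 (SE 0.11, adjusted p = 0.428). MiR-503-5p, from the gene beside it, stood at 41.6 ± 4.36 CPM in EN and 75.5 ± 16.2 CPM in EC (SD, n = 3 each), a log2 fold change of -0.86 (SE 0.19, adjusted p = 0.0559), and passed in 6 of 16 alternatives, DESeq2 among them (adjusted p = 0.00243). MiR-103-3p was at -0.57 (SE 0.26, adjusted p = 0.253).

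Other miRNAs that act on the cell cycle were read from 2 lists, beside the 3.98 percent of all rows that passed, the 49.2 percent that were negative and the median of 0.02. Of 7 that restrain the cycle through other seeds, 0 passed, 5 had a negative log2 fold change and the median was -0.27. The 2 most abundant of them were miR-26a-5p, which targets cyclins D2 and E2, at -0.28 (adjusted p = 0.141), and miR-34a-5p, which p53 induces, at 0.026 (adjusted p = 0.871). Of 7 that promote the cycle, 1 rose and 1 fell, 3 had a negative log2 fold change and the median was 0.088. MiR-222-3p, which represses the inhibitor p27, rose by 0.48 (SE 0.067, adjusted p = 0.0167), and miR-106b-5p, which represses p21, fell by 0.85 (SE 0.14, adjusted p = 0.0228). The rise of miR-222-3p counts among the 2.07 percent of rows called higher, and the fall of miR-106b-5p among the 1.91 percent called lower. With totals implied by RPM miR-222-3p no longer passed, at 0.15 (adjusted p = 0.240). MiR-222-3p was also lost without EN replicate 2 or EN replicate 3 (adjusted p = 0.0617 and 0.0678), and miR-106b-5p without EN replicate 2, EN replicate 3, EC replicate 1 or EC replicate 3 (adjusted p from 0.0758 to 0.130). Both were lost with a replicate block (adjusted p = 0.113).

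The rows most like miR-16-5p and miR-497-5p were found among 163 known rows of at least 100 CPM outside the family, by the root mean square difference of centred log2 levels over the 6 libraries. For miR-16-5p they were miR-92a-1-5p at 0.113, miR-17-5p at 0.120 and miR-532-5p at 0.144, against a median of 0.321. Their own log2 fold changes were -0.44, -0.58 and -0.27, with adjusted p of 0.107, 0.0618 and 0.244 by edgeR. The difference between EN and EC was part of the match, so fold changes near that of miR-16-5p follow from the choice of rows. For miR-497-5p they were miR-191a-5p at 0.0535, miR-340-3p at 0.0573 and miR-196b-5p at 0.0584, against a median of 0.223.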

How the data were processed

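The authors deposited read counts per mature miRNA and, beside each, an RPM value that equals the count over 1 library total, within 0.00176. Mean counts per group (signal values) that the authors added were not used. HISAT2 2.0.5 and the build Rnor 6.0 are listed in the submitters' processing notes. For the counter, annotation, strand rule and multiply matching reads the sources used here give nothing. The labels' protocols name Trizol extraction and an Illumina TruSeq RNA kit.

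Counts were compared with edgeR 4.0.16 in R 4.3.3 (filterByExpr, TMM factors, robust quasi-likelihood test), EN against EC, adjusted over 628 rows. SE is the absolute fold change over the square root of F. Arm use was tested by limma 3.58.1 on log2((5p + 1)/(3p + 1)) for known hairpins with a mean of at least 20 counts in both arms. Tests were run on simulated data first. The seed sharing used RefSeq, and no miRNA gene overlapped Mir15b, Mir16, Mir195 or Mir497 by 50 percent or more, so no rows were summed. Overlaps of the miR-15a gene were not checked. Alternatives included DESeq2 1.42.0 and limma-voom. Rows named were all family rows, rows with the same seed, the most alike rows, and, of each list, calls and otherwise the most abundant members; members and lists were chosen with earlier results of these data known. MiR-503-5p, miR-103-3p, the hairpins, miR-206-3p, further cell type markers and the ratio of miR-195-5p to miR-16-5p were added to these.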

Additional observations from a re-analysis of the deposited data

How the results depend on the processing

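With 25 rows called (13 higher, 12 lower), the count was 101 with library totals implied by RPM (13 higher, 88 lower), 44 with no filter, 70 with DESeq2 (6 rows without an adjusted p), 16 with limma-voom and 2 to 39 without 1 library. Arm use calls, 5 in all, ranged from 0 to 9 without 1 library. A replicate block for the library number left 2 calls and 0 arm use calls. Correlations of deviations from the group means were 0.0864, -0.0393 and 0.0146 for libraries of equal number. For libraries of unequal number they ran from -0.135 to 0.108. With so few libraries these values cannot tell whether equal numbers mark a shared culture or day. Why the number of calls changed between settings was not tested.

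Among family rows, those that newly passed were miR-16-5p with library totals implied by RPM and miR-195-5p with DESeq2 and without EC replicate 2. Reversals met small values: miR-15a-5p was -0.055 with totals implied by RPM, and miR-497-5p was 0.024 without newly named rows. Without 1 library, miR-497-5p ranged from -0.098 to 0.0139, miR-15b-3p from -0.18 to 0.067 and miR-195-3p from -0.27 to 0.025. All other family fold changes, arm ratios and guide ratios kept their sign in the alternatives run. The gap in the share of the 5p guides was -0.42 percentage points, and -0.58 to -0.30 without 1 library. Of the other miRNAs named, miR-34a-5p was -0.30 with totals implied by RPM, -0.00093 with no filter and -0.0141 to 0.10 without 1 library. MiR-322-5p, miR-26a-5p, miR-92a-1-5p, miR-17-5p and miR-532-5p newly passed with totals implied by RPM, and miR-17-5p also with DESeq2 and a mean of 10 CPM. Low counts limit miR-16-3p, miR-195-3p and miR-497-3p. The mean of 10 CPM left miR-195-5p, miR-15a-3p, miR-195-3p and miR-16-3p untested, and the miR-195 arm ratio had a value in 7 of 9 alternatives, with adjusted p from 0.0710 with a replicate block to 0.489 without EN replicate 3.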
